A study of Mus musculus with 6 samples.

Results

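The S100 calcium-binding proteins were followed in cultured squamous cell carcinoma cells of the mouse (SCCc) through 10 genes, *S100a1*, *S100a4*, *S100a6*, *S100a8*, *S100a9*, *S100a10*, *S100a11*, *S100a13*, *S100a14* and *S100a16*. They were taken by name from the rows of the count tables, alone or joined to another gene. Each had 1 row of its own among 23698 rows, and 0 of the 204 rows that join several names held one of them.

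The study set the mRNA isoforms of SCCc and their translation against those of other mouse epidermal cells. Here 3 libraries of SCCc were used, 1 of ribosome profiling and 2 replicates of RNA-seq. All 3 come from a keratinocyte line with the genotype HrasG12V; Tgfbr2 fl/fl KO, derived from newborn back skin, kept in medium low in calcium and used at passages 10 to 15. No other group entered the values below, so each one describes SCCc and none is a change against normal keratinocytes.

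S100 proteins are small proteins built around a pair of EF-hands, helix-loop-helix folds that hold a calcium ion, and most of them act as dimers that bind a target protein once calcium is bound. Many of their genes lie in the epidermal differentiation complex, beside genes for the proteins that build the outer skin layers. In skin, *S100a8* and *S100a9* are known for their rise in wounds, psoriasis and tumours, while *S100a6*, *S100a10* and *S100a11* are widely expressed.

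All 10 genes lie on chromosome 3 (GENCODE M21, build GRCm38). A group of 8 of them, from *S100a1* to *S100a9*, spans 185 kb at chr3:90511034-90695721. *S100a11* (chr3:93520488-93526287) and *S100a10* (chr3:93555080-93564643) lie 2.82 Mb further on and 28.8 kb from each other. Their longest annotated CDS runs from 267 nt in *S100a6* and *S100a8* to 480 nt in *S100a13*.

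The EF-hand loop is the part that holds calcium. The canonical loop pattern of PROSITE was found in the translated CDS of 6 members, *S100a1*, *S100a4*, *S100a6*, *S100a8*, *S100a11* and *S100a16*, and in 0.997% of 21466 coding genes. It was not found in *S100a9*, *S100a10*, *S100a13* and *S100a14*. The first 30 bases of the second loop are given for the 5 most abundant members, from GENCODE M21 transcripts, with codons 1, 3 and 5 of the loop in capitals. These codons encode the first residues that contact the ion in a canonical loop. For *S100a10* and *S100a14* the stretch is the one aligned to the loop of *S100a6*. In *S100a9* and *S100a13*, codons 1, 3 and 5 of the aligned stretch encode the same residues as in *S100a6*, so the members without the pattern are not alike there.
S100a6: GACcgtAACaagGATcaggaagtaaacttc
S100a11: GACctcAACtgtGACgggcagctagatttc
S100a16: GATgccAACcacGACgggcgcatctgcttt
S100a10: GACcagTGCcgaGATggcaaagtgggcttc
S100a14: GGCaacTGTaatGACtcgaaactggagttt
The loop begins at codon 61 of 89 in *S100a6*, 63 of 98 in *S100a11*, 67 of 124 in *S100a16*, 60 of 97 in *S100a10* and 72 of 104 in *S100a14*. *S100a10*, known as p11, is known to take up its active shape without calcium.

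The ribosome profiling library held 3549555 counts on exons, and the RNA-seq replicates 10707930 and 14003713. Levels are given as RPKM, the counts per kilobase of counted length scaled to these sums, and compare genes of different length. Ribosomes shield short mRNA fragments from nuclease, called footprints, and translational efficiency (TE) is their RPKM on the CDS divided by the RNA-seq RPKM on exons averaged over replicates. Its log2 is given relative to the median of the 9862 genes that passed the filters. These ask for footprints on a counted CDS, more than 1 RPKM in each RNA-seq replicate and a mean of more than 25 counts after scaling the libraries to one another. The targeted genes were read in every library, with 48.5 and 50.9 RPKM for *Hras* and 61.4 and 59.0 RPKM for *Tgfbr2* in RNA-seq replicates 1 and 2. Their footprints numbered 128 and 193. Counts over a whole gene show neither a base change nor the loss of part of a gene, so these values do not check the genotype.

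SCCc expressed 5 of the members strongly and the other 5 weakly. *S100a6*, *S100a10*, *S100a11*, *S100a14* and *S100a16* each had a mean RNA-seq level above 100 RPKM, while the next member, *S100a8*, lay 14.2-fold below *S100a16*. Together the 10 genes took 0.204% of the exon counts in RNA-seq replicate 1 (21894 counts, exact 95% interval 0.202% to 0.207%) and 0.195% in replicate 2 (27255 counts, 0.192% to 0.197%). They took 0.414% of the footprints on CDS (13228 footprints, 0.407% to 0.421%), 2.07 times their mean RNA-seq share. *S100a6* alone gave 59.2% of the members' footprints, and *S100a10* and *S100a11* gave 19.1% and 10.8%. These intervals, and the counting errors below, leave out any error but that of counting, and reads copied by PCR are counted as if independent. *S100a1* did not pass the filters, and the other 9 members did.

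**Figure D1:**
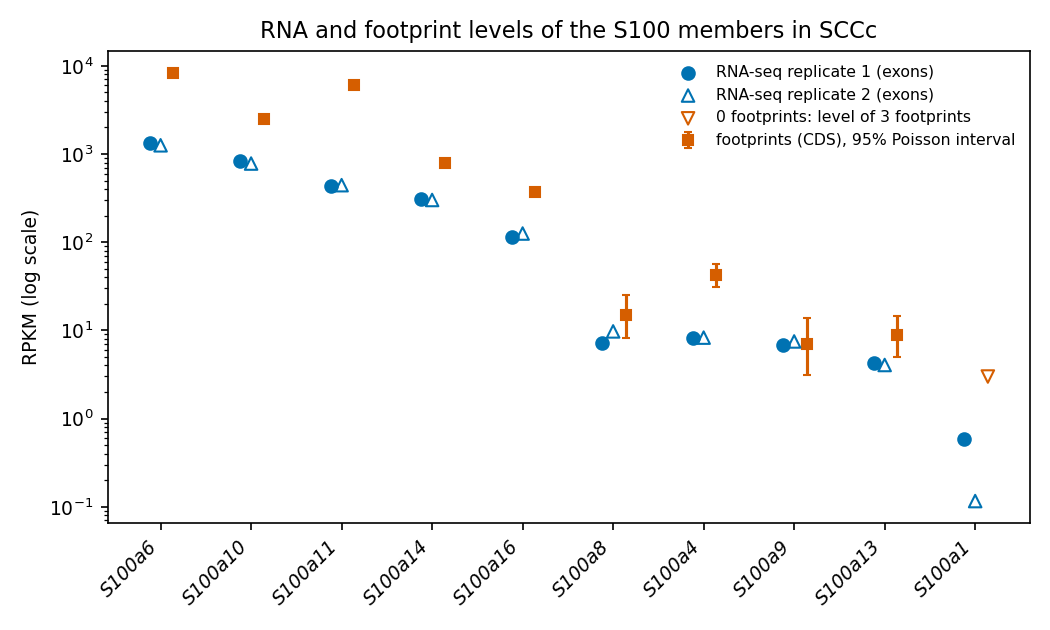
RPKM of each of the 10 members on a log scale, with both RNA-seq replicates on exons and footprints on CDS with exact 95% Poisson intervals, in the order of the mean RNA-seq level. The 5 members on the left lie between 115 and 1343 RPKM in RNA-seq, the next 4 between 4.05 and 9.74 RPKM, and *S100a1*, with 0 footprints, at 0.594 and 0.116 RPKM.

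Among the calcium sensors that bind annexins and related targets, *S100a6* stood highest. *S100a6* encodes calcyclin, which binds annexin A11 and the Siah-interacting protein *Cacybp*. Its RNA-seq level was 1343 RPKM in replicate 1 and 1254 RPKM in replicate 2, at percentile 99.7 of the passing genes. On its 267 nt CDS (gene at chr3:90612882-90624181) 7837 footprints were counted, a level of 8269 RPKM. Its log2 TE was 2.33 ± 0.06 (SD over the RNA-seq replicates, n = 2), with a counting error of 0.02. The TE of *S100a6* was 5.02 times that of the median gene.

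*S100a10* and *S100a11* were next in RNA level. *S100a10*, the partner of annexin A2 at the plasma membrane, had 838 and 779 RPKM in RNA-seq replicates 1 and 2 and a footprint level of 2503 RPKM from 2523 footprints. Its log2 TE was 1.29 ± 0.06 (SD, n = 2). *S100a11*, or calgizzarin, a partner of annexin A1, had 428 and 443 RPKM in RNA-seq and 6121 RPKM of footprints. Its log2 TE of 3.47 ± 0.05 (SD, n = 2) was the highest of the 9, and by footprints it stood above *S100a10* and below *S100a6* alone.

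The value of *S100a11* rests on a small part of its CDS. Of the 294 nt, 66 nt or 22.4% were counted, with 1434 footprints on them, while in the other passing members between 96.2% and 100% of the annotated CDS was counted. Copies of *S100a11* elsewhere in the genome share most of its sequence. Of its 265 stretches of 30 nt, 88.3% also occur in transcripts of 7 other genes, all 7 annotated as processed pseudogenes, and 292 of the 294 nt lie in such a stretch. In the others, 2.29% of the stretches of *S100a10* and 94.2% of those of *S100a4* recur in 1 other gene each, and 0 of those of the remaining 7 members. For *S100a4* that gene is *Gm42674*, which overlaps it on the same strand and has no row of its own in the files. The copies share different numbers of these stretches, 228 in *Gm12854* and 26 in *S100a11-ps* (chr12:73961142-73961447). *S100a11-ps* is aligned over all 294 nt and identical at 275 of them. The 30 nt with the most differences, bases 246 to 275 of the *S100a11* CDS, are shown with differing bases in capitals to show where this copy can be told from *S100a11*.
S100a11: agctaTagcGtgccatgattctttcAtcCA
S100a11-ps: agctaCagcAtgccatgattctttcCtcAG
Counted from 1 at the 5′ end of the stretch, the substitutions from *S100a11* to the copy are T6C, G10A, A26C, C29A and A30G. How reads that match several places were treated in these counts was not given in the sources used here, so the level of *S100a11* is uncertain. Among all passing genes, the 54 with less than 100 nt of counted CDS had a median log2 TE of 3.45, and the 101 with under 25% of their annotated CDS counted had a median of 2.96. *S100a11* lay near both medians, and the part of the counted length in its value was not tested.

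The epithelial members *S100a14* and *S100a16* followed. *S100a14*, an S100 protein of epithelia (chr3:90526856-90528837), had 310.3 and 301 RPKM in RNA-seq and 794 RPKM of footprints. Its log2 TE was 1.04 ± 0.02 (SD, n = 2). *S100a16*, expressed in many tissues (chr3:90537254-90543151), had 115 and 125 RPKM in RNA-seq and 371 RPKM of footprints, with a log2 TE of 1.28 ± 0.10 (SD, n = 2). The RNA level of *S100a14* was thus 2.54-fold that of *S100a16*, its footprint level 2.14-fold, and the log2 TE of the 2 genes differed by 0.25. With RNA-seq counted on the CDS their log2 TE was 0.97 and 1.03, closer together than the replicate SD of *S100a16*.

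*S100a8* and *S100a9*, the subunits of calprotectin, were both weakly expressed. *S100a8* (chr3:90668978-90670035) had 7.15 RPKM in RNA-seq replicate 1 and 9.74 RPKM in replicate 2, from 30 and 53.5 counts. *S100a9* (chr3:90692632-90695721) had 6.91 and 7.49 RPKM from 38.8 and 54.98 counts. Their RNA levels lay at percentiles 30.5 and 25.8 of the passing genes. On their CDS 14.1 and 8.53 footprints were counted, or 14.9 RPKM (exact 95% Poisson interval 8.16 to 24.9) for *S100a8* and 7.09 RPKM (3.16 to 13.7) for *S100a9*. Their log2 TE values were 0.48 ± 0.33 and -0.37 ± 0.09 (SD, n = 2), with counting errors of 0.42 and 0.52. Neither was apart from the median gene or from the other at this depth.

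*S100a4*, which binds non-muscle myosin IIA and is raised in motile and mesenchymal cells, had RNA levels like those of the calprotectin pair. It had 8.11 and 8.28 RPKM in RNA-seq, but its CDS held 45.7 footprints, a level of 42.5 RPKM (31.1 to 56.8). This was 2.86-fold the footprint level of *S100a8*. Its log2 TE was 2.03 ± 0.03 (SD, n = 2) with a 95% counting interval of 1.53 to 2.54, which lay above the intervals of *S100a8* and *S100a9* and held the value of *S100a6*. *S100a13*, which takes part in the export of fibroblast growth factor 1, had 4.31 and 4.05 RPKM in RNA-seq and 15 footprints, with a log2 TE of 0.73 ± 0.05 (SD, n = 2) and a counting error of 0.41.

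*S100a1*, a calcium sensor best known from muscle (chr3:90511034-90514392), was at the limit of detection. It had 3.91 and 1 counts in RNA-seq replicates 1 and 2 and 0 footprints, with an exact 95% Poisson upper limit of 3.69 RPKM on its CDS. No TE was computed for it. Of 7 other S100 genes in the files, *S100a3* alone passed the filters, with 2.61 and 2.11 RPKM in RNA-seq, 22.6 footprints and a log2 TE of 2.81 with a counting error of 0.38. Its scaled RNA-seq mean was 11.7, so it passed the limit of 25 only through its footprints. *S100a2* and *S100a7a* had 8 and 11.6 footprints on their CDS with RNA-seq counts of at most 2.45 in either replicate. *S100a5*, *S100g* and *S100b* had 0 counts in both RNA-seq replicates and 0 footprints on the CDS. *S100z* had 3 counts in RNA-seq replicate 1 and 0 in the other libraries.

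By RNA level the members ran *S100a6*, *S100a10*, *S100a11*, *S100a14*, *S100a16*, *S100a8*, *S100a4*, *S100a9*, *S100a13* and *S100a1*. Of these neighbours, *S100a8* and *S100a4* overlapped between replicates. *S100a4* and *S100a9* did not, but their 1.14-fold difference is within counting error at 38.8 to 57.9 counts a library, so *S100a8*, *S100a4* and *S100a9* have no clear order. By footprints, *S100a8*, *S100a13* and *S100a9* did not differ beyond their counting intervals, nor did *S100a9* and *S100a1*. By TE, the neighbours *S100a6* and *S100a4*, *S100a10* and *S100a16*, *S100a14* and *S100a13*, *S100a13* and *S100a8*, and *S100a8* and *S100a9* had 95% counting intervals that overlapped. *S100a11* stood above *S100a6* by 1.14.

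The members as a group had more footprints for their RNA than the median gene. The median log2 TE of the 9 that passed was 1.28, with values from -0.37 to 3.47, while log2 TE over all passing genes had an SD of 1.45. It was above 0 in 8 of the 9, against 50.0% of all passing genes by construction. It was above 1 in 6 of the 9, *S100a11*, *S100a6*, *S100a4*, *S100a10*, *S100a16* and *S100a14*, against 20.7% of all passing genes, and below -1 in 0, against 21.1%. The filters take the footprints into their mean count, and *S100a8* and *S100a13*, with scaled RNA-seq means of 23.01 and 20.98, passed the limit of 25 only through their footprints. With the mean taken over RNA-seq alone, a setting chosen after seeing the data, 6 of 7 members were above 0. The files used here hold 1 ribosome profiling library of SCCc, so these counts have no test. The study also drew on SCC ribosome profiling of an earlier series, which is not part of these values. The 5 members that reached 100 counts in all 3 libraries had a median of 1.29, and the 4 with fewer had a median of 0.60. With the reference limited to the 4829 genes that reach this depth, the log2 TE of these 5 had a median of 0.89 and 2 of them, *S100a6* and *S100a11*, were above 1.

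**Figure D2:**
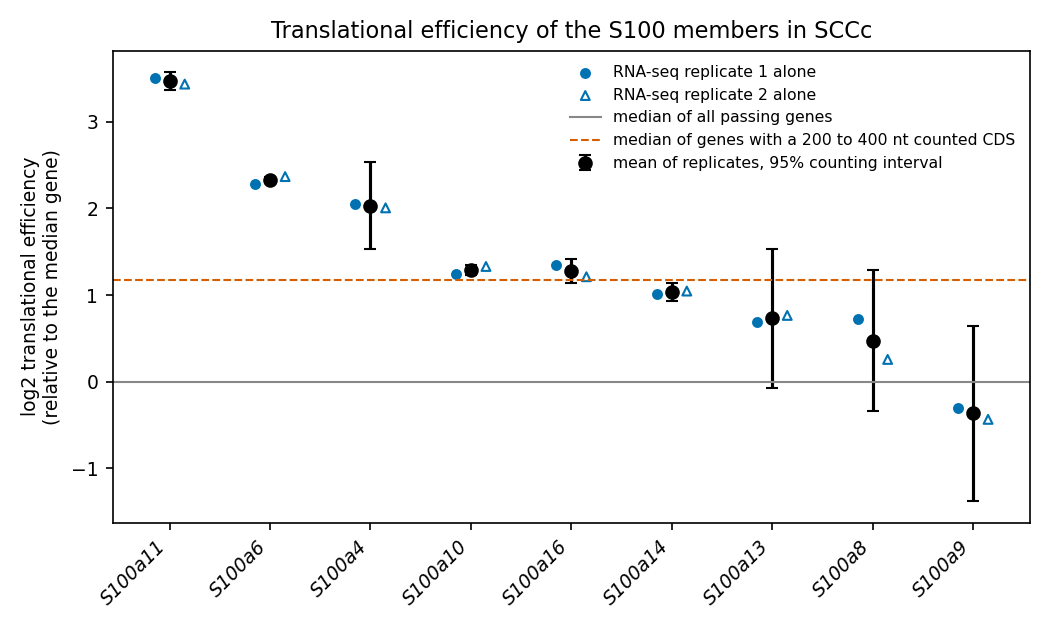
Log2 TE of the 9 members that passed the filters, with values against each RNA-seq replicate alone and bars of 95% counting intervals. The grey line is the median of all passing genes and the dashed line the median of other genes with a counted CDS of 200 to 400 nt, at 1.17, which 5 of the 9 members exceed.

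Short genes in general showed this pattern. Among the passing genes other than the members, 521 had a counted CDS of 200 to 400 nt, and their median log2 TE was 1.17. It was 0.65 for a counted CDS above 400 and up to 800 nt, 0.08 above 800 and up to 1600 nt, and -0.48 for longer ones. Of the 521 short genes, 57.0% were above 1 and 86.0% above 0, and of the 7 members in this range 5 were above 1 and 6 above 0. The members' median exceeded that of the short genes by 0.11. The difference was 0.03 with RNA-seq replicate 2 left out, -0.02 with replicate 1 left out and -0.04 against genes with a counted CDS of 100 to 400 nt, so its direction depended on these choices. Single members spread widely among the short genes. *S100a6* and *S100a4* exceeded 78.3% and 74.5% of them, *S100a10* and *S100a16* 53.2% each, *S100a14* 44.9%, *S100a8* 25.1% and *S100a9* 10.2%.

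**Figure D3:**
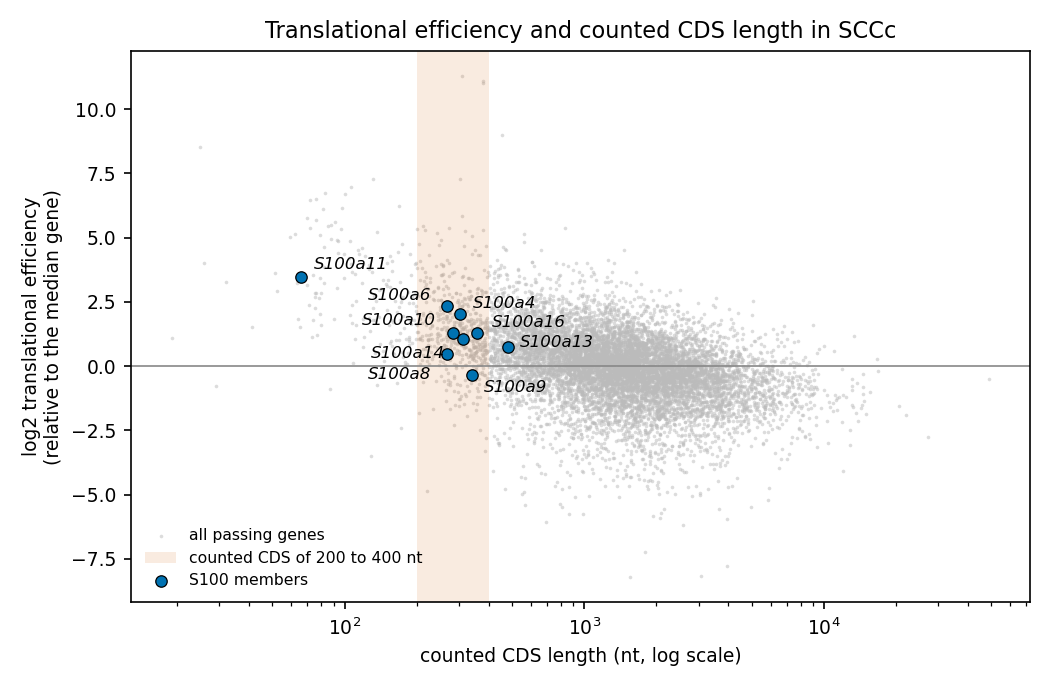
Log2 TE against the counted CDS length on a log scale for all 9862 passing genes (grey) and the 9 members (blue), with the range of 200 to 400 nt shaded. Of the 9 members, 7 lie in that range, *S100a11* lies at 66 nt and *S100a13* at 480 nt.

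The footprints of the abundant members were spread differently over their 5′UTRs. On *S100a14*, 488 footprints fell on 160 nt of 5′UTR and 879.7 on the 312 nt CDS, so the density per nucleotide was 108% of that on the CDS. The RNA-seq density on this 5′UTR was 93.6% of that on the CDS. Over 4779 genes of that depth with a counted 5′UTR, the median footprint density was 33.6% of the CDS density, and *S100a14* exceeded 90.4% of them. *S100a10* had 604 footprints on 115 nt of 5′UTR, a density 59.1% of that on its CDS. The share was 21.9% in *S100a11* and 21.5% in *S100a16*. In *S100a6* it was 4.47%, below all but 7.20% of these genes, with an RNA-seq density 24.0% of that on the CDS over a counted 5′UTR of 357 nt. That RNA-seq share was 24.1% in *S100a16*, 9.06% in *S100a11* and 72.2% in *S100a10*. On the 3′UTR, the median over 4825 genes was 1.74%, and *S100a10*, *S100a14* and *S100a16* had 1.06%, 1.90% and 2.70%. *S100a6* and *S100a11*, with counted 3′UTRs of 95 and 52 nt, had 8.22% and 8.65%. The RNA-seq density on these 3′UTRs differed, at 4.49% of that on the CDS in *S100a6* and 54.6% in *S100a11*. It was 36.2% in *S100a10*, 62.6% in *S100a14* and 58.0% in *S100a16*. The counts are not whole numbers. Of the RNA-seq exon counts above 0 and below 5, 98.7% in replicate 1 and 99.0% in replicate 2 were whole multiples of 1/101, within 0.01 of such a unit. The part that reads reaching in from the CDS have in the short UTRs of *S100a6* and *S100a11* was not tested.

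**Figure D4:**
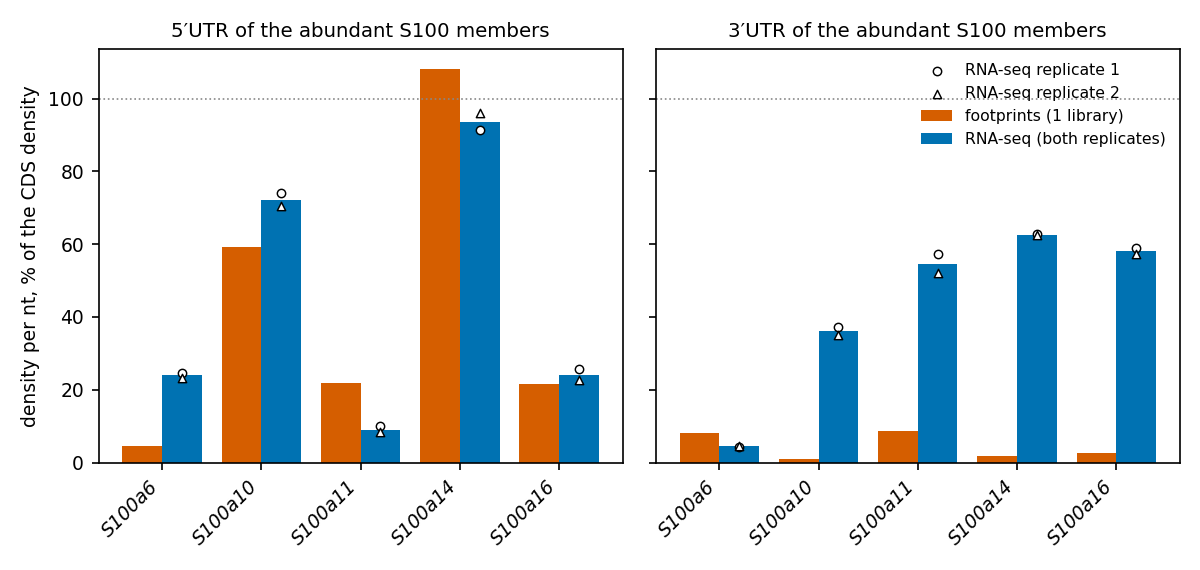
Density per nucleotide on the 5′UTR (left) and 3′UTR (right) as a percent of that on the CDS of the same gene, for footprints (1 library) and RNA-seq, where bars pool both replicates and markers give each one. In *S100a14* the 5′UTR reaches 108% for footprints and 93.6% for RNA-seq, and in *S100a6* 4.47% and 24.0%.

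With RNA-seq coverage this uneven, TE depends on the region counted. The RNA-seq level of *S100a6* was 2686 and 2543 RPKM on the CDS in replicates 1 and 2, against 1343 and 1254 RPKM over all exons. With RNA-seq counted on the CDS for every gene, its log2 TE was 1.61 in place of 2.33, that of *S100a11* was 3.10, that of *S100a16* was 1.03 and that of *S100a14* was 0.97. In this setting the median of the 9 members was 1.03, and 5 of them were above 1, against 1801 of 9861 genes.

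The RNA-seq libraries were kept as separate replicates, and nothing in the labels says whether they were separate cultures. The log2 ratio of replicate 2 to replicate 1 had an SD of 0.20 over the passing genes. In 8 of the 9 members it lay within this SD, from -0.11 in *S100a10* to 0.12 in *S100a16*. The ratios of *S100a6*, at -0.10, and *S100a10* had counting errors of 0.02 and 0.03, so these 2 differed by more than counting error. Over all passing genes the replicates had a chi-square of 7.52 per degree of freedom, a spread beyond counting that the counting intervals leave out. *S100a8* had a ratio of 0.45 with a counting error of 0.33, so its difference was not detectable at this depth. With DESeq2 size factors or edgeR TMM factors in place of the sum of exon counts, the ratio of *S100a8* was 0.46 in both.

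Markers of other cells were checked because *S100a8*, *S100a9* and *S100a4* are also abundant in leukocytes and fibroblasts. All 10 keratinocyte markers were above 1 RPKM in both RNA-seq replicates, with *Krt5* highest at 7965 and 9483 RPKM, so the labelled cell type showed its markers. Of 10 leukocyte markers in the files, 2 exceeded 1 RPKM in both replicates, and their summed level was 8.34 RPKM in replicate 1 and 17.6 RPKM in replicate 2. These 2 were *Cd14*, with 3.79 and 4.70 RPKM and 11 footprints, and *Lyz2*, with 2.71 and 8.56 RPKM and 0 footprints. *Ptprc* had 0.0824 and 0.176 RPKM, *Elane* was at 0 in every library, and all 10 but *Cd14* had 0 footprints. The 10 fibroblast markers, 5 of them above 1 RPKM in both replicates, summed to 12.2 and 19.6 RPKM, with *Col3a1* highest at 3.89 and 5.49 RPKM. On 7 of them, *Col1a1*, *Col1a2* and *Col3a1* included, 0 footprints were counted, while *Vim* had 41.9, *Pdgfra* 10 and *Fn1* 2 footprints. Of the fibroblast markers 8 and of the leukocyte markers 8 were higher in replicate 2, some on few counts. Higher there too were 6 of 10 keratinocyte and 4 of 4 simple epithelium markers. In the differentiated keratinocyte and the melanocyte and Schwann cell lists, 3 of 6 and 3 of 8 were. The median log2 ratio of all passing genes was -0.01. Among the members, *S100a8* was higher, and so were *S100a4*, *S100a9*, *S100a11* and *S100a16*. The part of leukocytes and fibroblasts in the levels of *S100a8*, *S100a9* and *S100a4* was not tested. In a bulk sample, fewer cells with a gene and less RNA per cell cannot be told apart. The 8 melanocyte and Schwann cell markers summed to 6.40 and 6.38 RPKM, of which *Pmel* gave 5.03 and 5.19 RPKM, and *S100b*, known from these cells, had 0 counts in RNA-seq and 0 footprints on its CDS. Differentiated keratinocyte markers summed to 322 and 343 RPKM, with *Sbsn* highest at 146 and 163 RPKM. Simple epithelium markers summed to 571 and 676 RPKM, nearly all from *Krt19*.

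**Figure D5:**
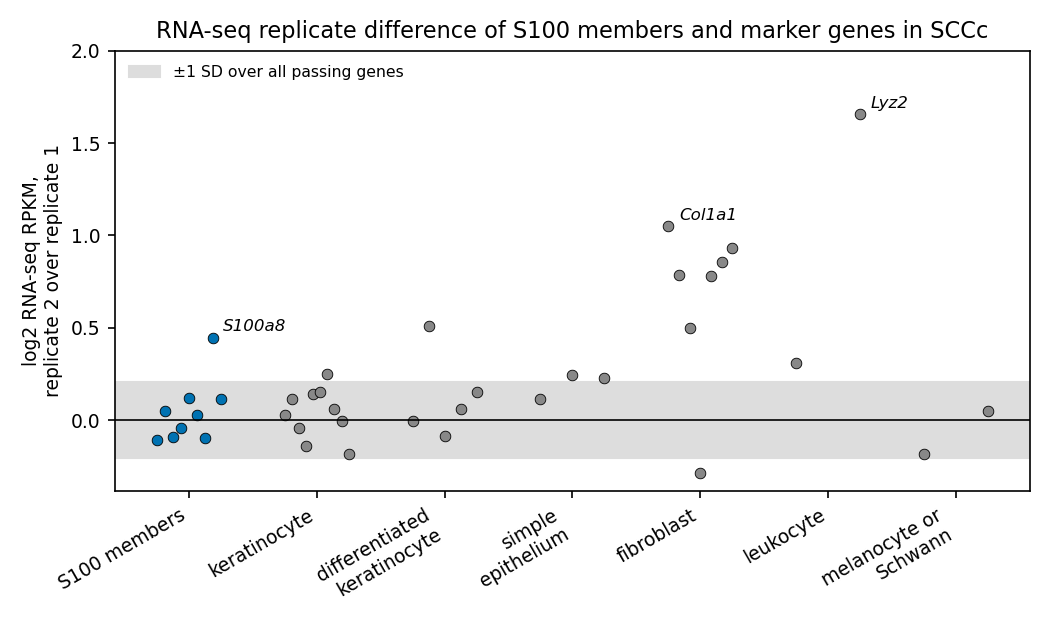
Log2 ratio of the RNA-seq RPKM of replicate 2 to replicate 1 for the 9 members that passed and for marker genes with at least 10 counts in both replicates, with the SD over all passing genes in grey. *S100a8* lies at 0.45, *Lyz2* and *Col1a1* lie above 1, and the other 8 members lie within the SD.

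The annexins had lower TE than the members that bind them. *S100a10* had a log2 TE of 1.29 and its partner *Anxa2*, at 875 and 888 RPKM in RNA-seq, 0.89. *S100a11* had 3.47 and its partner *Anxa1* 0.12, with 2716 and 2481 RPKM in RNA-seq, more RNA than any member. *S100a6* had 2.33 and its partner *Anxa11* -0.10, with 52.7 and 51.1 RPKM. These partners have a counted CDS of 1017, 1038 and 852 nt, longer than that of any member, and the part of this length in the difference was not tested. Of 15 genes for partners and receptors, 11 passed, with a median log2 TE of 0.24, 4 above 1 and 0 below -1, against 20.7% and 21.1% of all passing genes. *Cacybp*, *Trp53* and *Anxa5* were highest among those with 100 counts or more in each of the libraries, at 2.48, 2.00 and 1.21. *Ahnak*, the scaffold bound by the *S100a10* complex, *Anxa11* and *Myh9*, the myosin bound by *S100a4*, were lowest, at -0.11, -0.10 and -0.06. *Ager*, the receptor of several extracellular S100 proteins, did not pass, and *Tlr4*, a receptor of calprotectin, passed with 14.6 footprints and a log2 TE of -0.74.

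Other small EF-hand proteins, with a longer counted CDS than most of the members, were set beside them without a test. Of 13 such genes 11 passed, with a median log2 TE of 1.37, 8 above 1 and 0 below -1, against 20.7% and 21.1% of all passing genes. Among those with 100 counts or more in each library, *Calm2* and *Myl6* were high at 2.51 and 2.28, and *Chp1*, *Capns1* and *Pdcd6* were lowest at 0.11, 0.42 and 1.05. *Calm2*, for the calcium sensor calmodulin, lay above *S100a6* at 2.33 and below *S100a11* at 3.47. Of 17 other genes of the epidermal differentiation complex, 16 were in the files and 5 passed, with a median of 2.45, 3 above 1 and 1 below -1, beside the same 20.7% and 21.1%. The cornified envelope genes *Sprr1a* and *Sprr1b* had 3.26 and 2.75, and *Ivl*, for involucrin, had -0.85. The others that passed, with fewer counts, were *Sprr2d* at 2.45 and *Tchh*, for trichohyalin, at -2.58 from 8.14 footprints. Beside them on chromosome 3, *S100a6* at 1298 ± 62.8 RPKM (SD, n = 2) exceeded *Ivl* at 104 ± 0.124 RPKM and *Sprr1b* at 215 ± 6.60 RPKM in RNA-seq.

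The genes closest to the 3 most abundant members, by distance in log2 RNA-seq and log2 footprint RPKM over 4824 genes, were *Gapdh* and *Actb* for *S100a6*, at 0.49 and 0.76, and *Rpl38* and *Cfl1* for *S100a11*, at 0.22 and 0.70. *Ly6e* was among those closest to *S100a10*, at 0.16. *Gapdh* had 1405 and 1550 RPKM in RNA-seq and 6037 RPKM of footprints, and *S100a6* had 1343 and 1254 RPKM and 8269 RPKM.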

How the data were processed

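The authors trimmed reads with TrimGalore, used Bowtie2 2.4.1 to take out footprints of ribosomal, mitochondrial and tRNA origin, aligned to GRCm38 with STAR 2.6.1 and counted with Plastid, and deposited estimated counts per gene on exons, CDS and UTRs. The deposited RPKM of the authors uses a larger library total and served as an alternative. With the filter on these values, 8204 genes and 8 members passed, and the median log2 TE of the members was 1.278. *S100a13*, at 0.91 and 0.86 RPKM in RNA-seq replicates 1 and 2, did not pass. On this scale *S100a11*, *S100a14* and *S100a16* had mean RNA-seq levels of 92.4, 64.9 and 25.5 RPKM, below 100 RPKM, and *S100a8* had 1.79 RPKM. Values were computed in Python 3.11.15 (numpy 2.4.6, pandas 2.3.3, scipy 1.17.1), where the base mean used size factors by the median-of-ratios method of DESeq2. Size factors of DESeq2 1.42.0 and TMM factors of edgeR 4.0.16 served as alternatives for the RNA-seq replicate ratios. Alignments were made with biopython 1.88 and figures with matplotlib 3.10.9. Genes named were all S100 genes, the 3 highest and 3 lowest TE values at 100 or more counts in each list of partners, EF-hand proteins and epidermal differentiation complex genes, *Anxa1*, *Anxa2*, *Anxa11* and the 2 genes nearest to each of 3 members. Of the genes this rule gives, 2 are left out of the text. *Tlr4*, *Ager*, *Sprr2d*, *Tchh*, the pseudogenes and single markers were chosen after their values were seen. The members and lists were chosen with earlier results of these data known. The calculation was tested on simulated data.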

Additional observations from a re-analysis of the deposited data

Results flagged for a closer look

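*S100b* (chr10:76253853-76261159), an S100 gene known from Schwann cells and other nerve-associated cells, had a signal in data that no comparison above used. On its 3′UTR of 1233 nt, 81.5 footprints were counted, all that fell on the gene, while its CDS and 5′UTR had 0 footprints and both RNA-seq replicates had 0 counts. This lies above the 3 counts that a single library needs to show a gene. *Dip2a*, on the opposite strand, is annotated over part of *S100b*, with 0 of 1484 exon nt of *S100b* in its exons, and where these footprints come from was not tested.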

How the results depend on the processing

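The median log2 TE of the S100 members was 1.28 and stayed above 0 in every setting tried. It lay between 1.21 and 1.24 with 1 RNA-seq replicate left out, at 1.30 with a pseudocount of 1 RPKM, at 1.03 with RNA-seq counted on CDS and at 1.12 without division by length. It was 0.89 at 100 or more counts in all libraries, 1.26 without a filter beyond a count above 0 and 1.22 where 80% or more of the annotated CDS was counted. In settings chosen after seeing the data it was 1.16 without *S100a11*, and 0.999 without *S100a11* and with RNA-seq on CDS. In another such setting, the base mean over RNA-seq only, it was 1.31 over 7 members, 6 of them above 0. At 100 or more counts, 5 members remain, all 5 above 0 and 2 above 1. Those 5 were all above 1 against the larger reference, and against the deeper one *S100a10* was at 0.89, *S100a16* at 0.89 and *S100a14* at 0.64. In that setting 908 of 4829 genes were above 1 and 757 below -1, against 2046 and 2077 of 9862. The value of *S100a9* changed sign to 0.0188 without division by length, and in this setting *S100a14* fell from 1.04 to 0.24 and *S100a16* from 1.28 to 0.75, below *S100a13* at 1.17 and *S100a8* at 0.93. The excess over short genes, 0.11, ranged from -0.0208 to 0.0274 with 1 replicate left out and was 0.0468 against a counted CDS of 250 to 350 nt, -0.0408 against 100 to 400 nt and 0.17 with RNA-seq on CDS, and the cause was not tested. The summed RNA-seq share was 0.186% of CDS counts. Of 75 values of single members under alternatives, 46 moved by less than the replicate SD, 28 moved by more and 1 changed sign. *S100a8*, *S100a9* and *S100a13*, with 8.53 to 15 footprints each, are limited by depth, and *S100a11* by the 22.4% of its CDS that was counted. No paired analysis was possible because the result comes from no test and 1 condition.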
